A study of Rattus norvegicus with 2 samples.

Results

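The miR-204 and miR-211 family consists of a pair of near-identical microRNAs (miRNAs) that share a seed. Its members were taken by probe name, rno-miR-204 and rno-miR-211 without the starred partner strand, and are 2 of the 349 rat miRNA probes on the array. Both were measured in the nucleus accumbens (NAc), a ventral striatal region of the reward circuit, of adult male Sprague-Dawley rats that weighed 150 to 180 g at the start. The vehicle group received 500 µl saline and the alcohol group 1 g/kg alcohol, each by intraperitoneal injection 2 times a day for 7 days, after which the NAc with its core and shell was taken. The series used 18 rats, and the files hold 1 array per group. Whether RNA of several rats was combined on an array is not stated in the sources used here. Because the 9 repeat spots of a probe share 1 RNA sample and 1 array, every SD below is technical, no difference has a replicate check, and treatment and array cannot be told apart. The NAc is a mixture of cells, in which fewer cells of a type and less RNA per cell cannot be told apart either.

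In short, rno-miR-204 was close to background on the vehicle array and bright on all 9 spots of the alcohol array, and its alcohol-over-vehicle log2 ratio was 2.18 ± 0.41 (SD over 9 spots). rno-miR-211, which differs from it by 1 base, passed the detection limit on none of its 9 spots on either array.

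A miRNA guides the silencing machinery to messenger RNAs, mainly through its seed, bases 2 to 8 from the 5′ end. miRNAs with the same seed are therefore counted as a family with overlapping predicted targets. miR-204 is known for high levels in the choroid plexus and the retinal pigment epithelium, where it helps to maintain the epithelial state. miR-211 is known from pigment cells. In mammals the genes lie in introns of a pair of related ion channel genes, miR-204 in Trpm3 and miR-211 in Trpm1.

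The target sequences listed for both probes are shown because they differ by a single base. The seed is in capitals, and the partner strand of the miR-204 hairpin is given for comparison with its own bases 2 to 8 in capitals.
rno-miR-204: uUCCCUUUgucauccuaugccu
rno-miR-211: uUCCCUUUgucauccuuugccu
rno-miR-204*: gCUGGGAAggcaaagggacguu

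Counted from 1 at the 5′ end, the substitution from miR-204 to miR-211 is A17U, and the other 21 of 22 bases are identical. The targets of both members have 22 bases and a GC content of 45.5%. Each was identical to a RefSeq mature sequence of the GRCr8 build. The miR-204 sequence matched rno-miR-204-5p at chr1:229743493-229743514 and miR-211 matched rno-miR-211-5p at chr1:127189353-127189374, both on the plus strand. In the same build the miR-204 position lies within the span of Trpm3 and the miR-211 position within that of Trpm1. The table used gives gene spans and no exons. The array files name no genome build.

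The RefSeq hairpins, with the mature strand of the family in capitals, show that the similarity is concentrated in that strand. They have 110 bases for miR-204 and 106 for miR-211 and are 39 edits (substitutions, insertions or deletions) apart, against 1 between the mature strands.
miR-204 hairpin: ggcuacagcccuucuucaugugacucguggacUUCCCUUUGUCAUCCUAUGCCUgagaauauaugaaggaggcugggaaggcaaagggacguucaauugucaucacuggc
miR-211 hairpin: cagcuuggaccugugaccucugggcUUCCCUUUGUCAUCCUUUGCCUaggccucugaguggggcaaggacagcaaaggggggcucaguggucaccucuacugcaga

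Only these 2 of the 349 probes list a target with the seed UCCCUUU, and none of the others holds those bases at any position. The nearest other target in sequence was that of miR-135b, at 8 edits from miR-204, followed at 9 edits by 3 others, of which miR-135a and miR-223 are given here. miR-135b and miR-135a were not detected, with mean densities of 245 and 247 on the vehicle array and 142 and 148 with alcohol. miR-223, a myeloid miRNA, was detected on the alcohol array alone, with 7 of 9 spots above the limit described next and 2 of 9 above its stricter form. No probe but that of miR-211 was thus a close relative of miR-204 in sequence.

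Brightness was read as the mean pixel density of a spot in arbitrary units, without background subtraction. For a miRNA to count as detected, 5 or more of its 9 spots had to lie above the median of the 88 mismatched control spots of that array plus 3 median absolute deviations (MAD). This limit was 266 on the vehicle and 168 on the alcohol array. A stricter form, with the MAD scaled as is usual for normally distributed values, set it at 278 and 179. Detection by the first form was reached by 164 of 349 miRNAs on the vehicle array (47.0%) and by 207 on the alcohol array (59.3%). The order of these counts held with the stricter form, at 151 for vehicle and 196 for alcohol, and turned over with other limits. Counts were then 348 for vehicle and 184 for alcohol with the mean of the empty spots plus 3 SD. They were 152 and 109 with the 95th percentile of the mismatched controls, and 123 and 55 with their highest spot.

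On the vehicle array the miR-204 spots read between 243 and 336, with a median of 269 and a mean of 276 ± 32.1 (SD, n = 9 spots). Of the 9 spots, 6 exceeded the limit of 266 and 3 the stricter limit of 278. The mean thus fell between both limits, and whether miR-204 counted as detected in vehicle-treated rats depended on the form of the limit. The spots above the stricter limit read 336 and 315 in the upper rows of the array and 288 in the middle rows. Every one of the 9 spots was brighter than the median of its 10 nearest empty spots, by 50.1 to 145 density units. miR-211, without detected signal on that array, also stood above its nearest empty spots, by a smaller 44.2 ± 6.51 (SD, n = 9 spots), as described below.

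On the alcohol array the miR-204 spots read between 1198 and 1947, with a median of 1563 and a mean of 1568 ± 263 (SD, n = 9 spots). All 9 spots exceeded both limits, and the lowest of them was brighter than the highest spot on the vehicle array. The excess over the nearest empty spots was 1423 ± 262 on the alcohol array and 75.5 ± 31.5 on the vehicle array (SD, n = 9 spots each). Empty spots moved the other way between the arrays, with a median of 202 on the vehicle and 141 on the alcohol array.

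**Figure D1:**
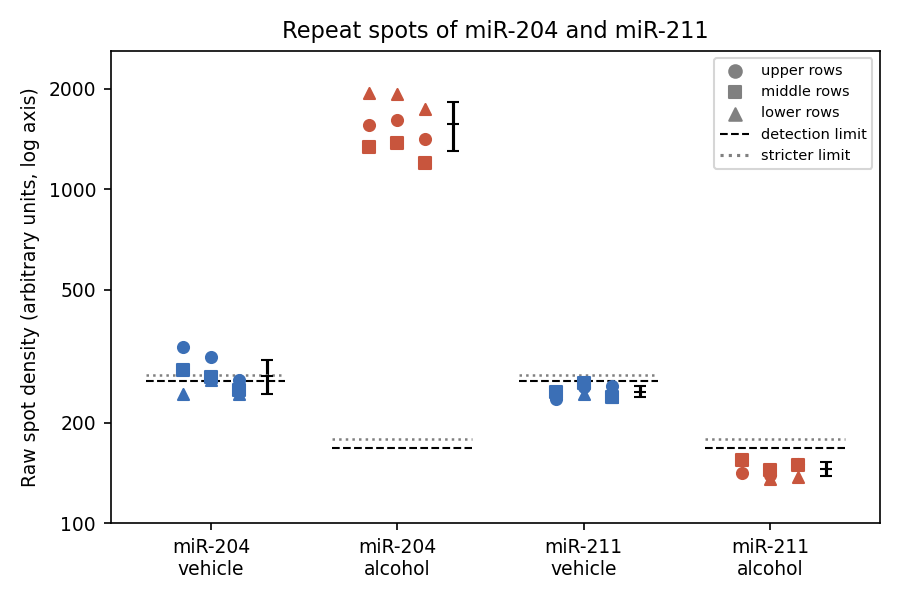
Raw density of each of the 9 repeat spots (arbitrary units, log axis) of miR-204 and miR-211 on the vehicle array (blue) and the alcohol array (red), with the shape marking the band of rows, the bar the mean ± SD over 9 spots, the dashed line the detection limit and the dotted line the stricter limit. The miR-204 spots lie around the limit of 266 on the vehicle and between 1198 and 1947 on the alcohol array, while all miR-211 spots lie below the limit on both arrays.

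After background correction, log2 transformation and cyclic loess normalization over all 349 probes, the signal of miR-204 was 220 on the vehicle and 998 on the alcohol array. The log2 ratio of 2.18 ± 0.41 (SD over 9 spots) is a 4.54-fold higher signal on the alcohol array. Taken spot by spot at the same positions, the log2 ratio ran from 1.69 to 2.86 and was positive at all 9 positions. Where miR-204 is held not to be detected on the vehicle array (the stricter limit), the fold is only a bound. Its denominator is whichever is higher, the vehicle signal of miR-204 or the lowest signal of any miRNA detected there. Since its own signal of 220 was above that lowest signal of 137, the bound equals the measured fold in this setting, at least 4.54-fold higher. These normalized signals do not order miRNAs by vehicle density, because cyclic loess shifts a probe by its brightness over both arrays. A miR-204 vehicle spot at 243.2 had a normalized log2 value of 7.45, and a miR-211 vehicle spot at 243.9 had 6.60. The bound holds for this setting alone and was lower in others, down to at least 3.12-fold without background correction.

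The repeat spots lie in 3 bands of rows, and the ratio was recomputed within each band. The log2 ratio of miR-204 averaged 1.89 in the upper, 1.95 in the middle and 2.70 in the lower band, with 3 spots each. In the lower band the vehicle spots were dimmest, at 252 ± 14.9, and the alcohol spots brightest, at 1871 ± 115 (SD, n = 3 spots each). On the alcohol array miR-204 deviated from its own mean by 0.27 on the log2 scale in the lower band, while the 163 miRNAs detected on both arrays had a median deviation of 0.018 there. On the vehicle array the same deviations were -0.13 for miR-204 and -0.083 for the 163 miRNAs. The higher signal on the alcohol array was thus present in each band, with a size that varied along the array.

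The size of the ratio also varied with the processing, and its direction did not. Over 15 other settings the log2 ratio of miR-204 was positive in all 15, between 1.64 without background correction and 4.37 with the mismatched control baseline subtracted. Without normalization between the arrays it was 3.32. In the processed signal that the authors deposited, miR-204 stood at 86.3 for vehicle and 844 for alcohol, a 9.77-fold ratio. Settings that scale all miRNAs alike also moved the whole array, and the median log2 ratio of the 349 probes lay between -1.47 with median scaling and 0.11 with scaling to the 5S rRNA probes. Set against the median ratio of those 163 miRNAs, the log2 ratio of miR-204 was higher by 2.25 in the main setting and by 1.67 to 4.46 in the others. Among the treatments of background, the log2 ratio was 1.64 with none, 2.18 with the main correction, 3.05 with the nearest empty spots and 4.37 with the mismatched controls.

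**Figure D2:**
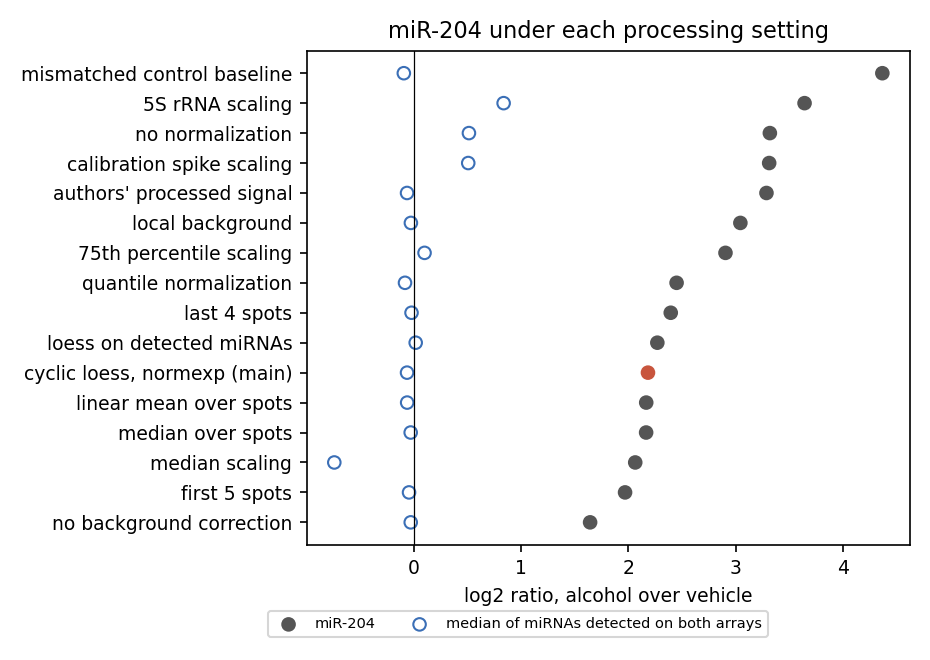
The log2 ratio of alcohol over vehicle of miR-204 (filled, with the main setting in red) and the median over the 163 miRNAs detected on both arrays (open) under the main setting and the 15 others. The ratio of miR-204 ran from 1.64 to 4.37, and in each setting it lay above that median by at least 1.67.

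rno-miR-211 gave no signal above the limit. On the vehicle array its spots read between 236 and 264, with a median of 247 and a mean of 248 ± 9.60 (SD, n = 9 spots). On the alcohol array they read between 136 and 155, with a median of 144 and a mean of 145 ± 7.24 (SD, n = 9 spots). In each array 0 of the 9 spots exceeded the limit, and the highest vehicle spot, at 264, lay just under it at 266. Since miR-211 was below the limit on both arrays, no fold change is given.

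The lower raw density of miR-211 on the alcohol array went with that of the controls. The median of the mismatched control spots was 241 on the vehicle and 145 on the alcohol array, near the miR-211 mean on each. Against the 10 nearest empty spots, miR-211 stood 44.2 ± 6.51 higher on the vehicle and -0.27 ± 7.89 away on the alcohol array (SD, n = 9 spots each). On the vehicle array, spots with a probe were therefore brighter than empty spots even where no miRNA was detected. A limit made from empty spots alone (their mean plus 3 SD) passed all 9 miR-211 spots on the vehicle array and 348 of 349 miRNAs with them, but 0 of 9 miR-211 spots on the alcohol array. The deposited processed signal of miR-211 was 17.1 for vehicle and 7.28 for alcohol.

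The 2 members thus went apart on the alcohol array despite 21 identical bases. On that array miR-204 passed on 9 of 9 spots and miR-211 on 0 of 9, and on the vehicle array on 6 of 9 and 0 of 9. Of the 2 members, 1 was detected on each array, beside 59.3% of all miRNAs on the alcohol array and 47.0% on the vehicle array. RNA of miR-204 could also bind the miR-211 probe through those 21 bases, but on the alcohol array the miR-211 spots stayed at the level of the nearest empty spots. Binding between the members was not tested with RNA of known sequence.

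The array holds 23 pairs of miRNA probes whose listed targets have the same length and differ by 1 substitution, and this comparison was picked with the values in view. On the alcohol array both members were detected in 15 pairs, neither in 5 and a single member in 3. The 3 were miR-204 with miR-211, miR-19b with miR-19a and miR-301a with miR-301b. In the latter pairs the detected member had a mean density of 285 for miR-19b and 245 for miR-301a, and the other member 146 and 147. The miR-204 pair was the only one of the 3 in which the detected member also passed the limit on the vehicle array, and that depended on the form of the limit. Among the pairs with both members detected, log2 ratios could also differ, as for miR-27a at 1.84 and miR-27b at 0.095, a pair that differs by C19U.

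The partner strand of the miR-204 hairpin, rno-miR-204*, did not follow miR-204. This strand is usually degraded once the guide strand has been loaded. Its spots read between 245 and 284 on the vehicle array, with a mean of 260 ± 12.3, and between 168 and 221 on the alcohol array, with a mean of 189 ± 16.1 (SD, n = 9 spots each). On the vehicle array 3 of 9 spots passed the limit and 1 the stricter limit. On the alcohol array all 9 passed the limit and 6 the stricter one, by a narrow margin. Its normalized signal was 132 on the vehicle and 123 on the alcohol array, so it was detected on the alcohol array without a higher normalized signal.

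A threshold of 1.3-fold was taken to follow the size of change on which the study selected miRNAs. Of the 208 miRNAs detected on at least 1 array, 36 (17.3%) passed it upward with alcohol and 40 downward. miR-204 was among the 36 and miR-211 was not among the 208. The split moved to 111 higher and 13 lower without normalization, to 142 and 2 with scaling to the 5S rRNA probes, to 110 and 13 with scaling to the calibration spikes, to 63 and 60 with scaling to the 75th percentile, and to 16 and 154 with median scaling. By size miR-204 ranked 2 among the 208, after miR-29b at a log2 ratio of 3.67, and it ranked between 2 and 5 over all settings. A threshold of 4-fold, picked with the values in view, was passed upward by 2 of the 208 (0.962%), miR-29b and miR-204. miR-204 passed it in 13 of the 15 other settings and not with the first 5 spots (3.92-fold) or without background correction (3.12-fold). miR-29b differed from miR-204 in that it was detected on all 9 spots of the vehicle array, with a mean density of 433. The median log2 ratio of the 208 was 0.019, with an interquartile range of 0.45.

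**Figure D3:**
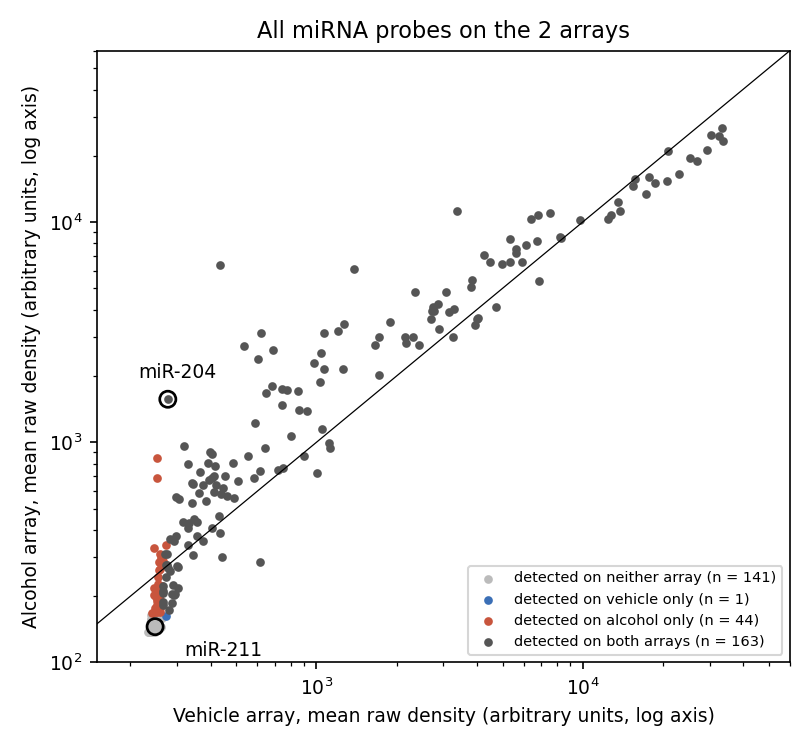
Mean raw density over 9 spots of each of the 349 miRNA probes on the vehicle array and the alcohol array (arbitrary units, both axes logarithmic), coloured by the arrays on which it was detected, with the diagonal of equal density. miR-204 (276 on the vehicle and 1568 on the alcohol array) stands above the dim miRNAs at its left edge, and miR-211 (248 and 145) lies among the undetected probes.

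The miRNAs most like miR-204 were sought among the 44 that were detected on the alcohol array alone, by the distance between normalized log2 signals over the 2 arrays. This class depends on the limit, and held 46 miRNAs with the stricter form, 0 with the limit from empty spots, 2 with the 95th percentile of the mismatched controls and 1 with their highest spot. The nearest were miR-338, an oligodendrocyte miRNA, at a distance of 0.92 and miR-384-3p at 1.23. Both were at the limit or below it on nearly all vehicle spots, with 0 and 1 of 9 passing, and passed on all 9 alcohol spots, where their mean densities were 847 and 687. After normalization in the main setting they were at least 3.09-fold and at least 2.55-fold higher than on the vehicle array. These bounds hold for that setting alone. Both were picked for signals near those of miR-204 on the 2 arrays, so a higher signal with alcohol followed from the choice. Over the 15 other settings their log2 ratios were all positive, from 1.12 to 4.56 for miR-338 and from 0.90 to 4.35 for miR-384-3p. The lowest were without background correction and the highest with the mismatched control baseline. The next in order, miR-186, miR-322 and miR-340-5p, lay at distances of 2.23, 2.30 and 2.37. Their mean densities were 271, 246 and 258 for vehicle and 340, 332 and 312 for alcohol, and with median scaling their log2 ratios turned negative, at -0.35, -0.16 and -0.39. In the main setting 3 of the 44 were at least 1.3-fold higher, namely miR-338, miR-384-3p and miR-322. miR-204 itself is not among the 44 under the first form of the limit, and miRNAs detected on both arrays were not searched for likeness.

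GC content and log2 ratio had a Spearman rho of -0.43 over the 163 miRNAs, a description only, since miRNAs of 1 pair of arrays are no replicates. miR-204 was therefore set beside miRNAs of its own GC content. Of the miRNAs detected on both arrays, 20 others have a GC content of 45.5%. Their log2 ratios ran from -2.16 to 1.71, with a median of 0.055. That 0 of the 20 exceeded miR-204 followed from its rank of 2 among the 163. Only miR-29b was higher there, and its GC content is 34.8%. The count therefore says nothing of the trend with GC content.

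The tissue was checked with miRNAs known from cell types that the dissected block could hold. The 5 neuron-enriched miRNAs passed on all 9 spots of both arrays, with miR-9, miR-128, miR-124 and miR-218 the brightest and a summed density of 94729 for vehicle and 82368 for alcohol. After cyclic loess miR-9 and miR-218 passed 1.3-fold upward, at log2 ratios of 0.72 and 0.51. That of miR-9 rested on 1 vehicle spot at 289.9, against at least 30582 on the other vehicle spots, and was 0.027 with the median over spots. Its mean density was 33523 for vehicle and 26758 for alcohol. With median scaling the ratios of miR-9 and miR-218 were -0.87 and -0.63. Of the list for choroid plexus, where miR-204 is abundant, and ciliated epithelium, 0 of 3 miRNAs were detected on the vehicle and 1 of 3 on the alcohol array. This was miR-34c, with 8 of 9 alcohol spots above the limit, a mean density of 188 there and 1 of 9 vehicle spots above it. miR-449a and miR-34b passed on 0 of 9 spots on each array. The summed raw density of the 3 was 752 for vehicle and 478 for alcohol, near background, and the mismatched controls were also lower on the alcohol array.

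Lists for other sources were largely undetected, apart from miR-122. Of the 5 epithelial miRNAs of the miR-200 family, 0 were detected on either array, and miR-200c averaged 252 on the vehicle and 156 on the alcohol array. Of the 3 sensory miRNAs (miR-182, miR-183 and miR-96), 0 were detected on either array, with miR-182 the brightest at 256 and 159. The 4 muscle miRNAs had 1 detected on the vehicle array, miR-133a, and 0 on the alcohol array. In the main setting miR-133a passed 1.3-fold downward with alcohol, at a log2 ratio of -0.43. The liver miRNA miR-122 was detected on both arrays and was lower on the alcohol array, at a log2 ratio of -2.16, which ran from -3.11 with the mismatched control baseline to -0.83 with scaling to the 5S rRNA probes.

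The remaining lists held brighter members, whose ratios are those of the main setting. The 3 vascular miRNAs (miR-126, miR-145 and miR-143) were detected on both arrays, and 1 of them, miR-145, was at least 1.3-fold higher, at a log2 ratio of 0.60, which was 0.098 with quantile normalization and 1.78 with scaling to the 5S rRNA probes. Of the 6 blood and myeloid miRNAs, 1 was detected on the vehicle and 2 on the alcohol array, with miR-150 the brightest and none past 1.3-fold. Of the 4 oligodendrocyte miRNAs, 1 was detected on the vehicle and 3 on the alcohol array, and 1, miR-338, was at least 1.3-fold higher. The brightest of them, miR-219-2-3p, was detected on both arrays and had a log2 ratio of -0.25. Of the 3 pituitary and islet miRNAs, 2 were detected on the vehicle and 3 on the alcohol array, none past 1.3-fold, with a median log2 ratio of 0.022. The brightest, miR-7a, had a log2 ratio of -0.23, which ran from -1.49 with median scaling to 0.089 with scaling to the 5S rRNA probes. The median log2 ratio was 0.23 for the vascular list, 0.043 for the blood and myeloid list and 0.048 for the oligodendrocyte list, against 0.0067 over all 349 probes. These medians include undetected members, among them 4 of the 6 blood and myeloid miRNAs, and say little of the detected ones. The part of other cell types in the ratio of miR-204 was not tested.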

How the data were processed

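Small RNAs of the NAc received a poly(A) tail and a Cy3-stained tag and were hybridized to 1-colour miRNA arrays (LC Sciences). For each array the authors deposited a spot intensity, the mean pixel density without background subtraction. They also deposited 1 processed signal per probe, normalized with a cyclic method whose settings are not given in the sources used here. No column was left unmapped.

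Here, limma 3.58.1 (R 4.3.3) applied normexp with an offset of 50 to the densities, with the fit made on all spots of an array because no background column is given. Values were log2-transformed, averaged over 9 spots and normalized with cyclic loess (span 0.7, 3 iterations) over 349 probes. Counting and sequence steps used Python 3.11.15. Of these steps, only the main normalization was tested on simulated arrays, with changes given to miRNAs that were bright on both. A miRNA near background on 1 array alone, like miR-204, was not simulated. The detection limits were not tested in this way. Sequences came from RefSeq tables of GRCr8, in which both members matched by sequence. No test was made, since each group has 1 array, and precision is limited by their number. Between spots, the raw density of the 163 miRNAs detected on both arrays had a median coefficient of variation of 8.61% for vehicle and 6.54% for alcohol.

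The members and the lists were chosen with earlier results of these data known. Besides the members, miRNAs were named for sequence (nearest 3), likeness in signal (nearest 5), the 3 largest ratios among those detected on the alcohol array alone, and up to 4 per list by density. Any other miRNA was named with its values in view.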

Additional observations from a re-analysis of the deposited data

How the results depend on the processing

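No paired analysis was possible because there was only 1 array for a group. The main log2 ratio of miR-204, 2.18, was 3.32 (9.99-fold) without normalization, 2.91 (7.50-fold) with scaling to the 75th percentile, 3.64 (12.5-fold) with 5S rRNA scaling, 3.31 (9.95-fold) with calibration spikes, 1.64 (3.12-fold) without background correction, 3.05 (8.26-fold) with the local background and 3.29 (9.77-fold) in the authors' processed signal. With the mismatched control baseline it was 4.37, and the bound was 14.6-fold. The other 7 of the 15 settings moved it by less than the SD over spots, and leaving out 1 of the 9 spots kept it between 2.12 and 2.25. The cause of the shifts was not tested. The vehicle signal of miR-204 was close to the detection limit, and its part in the uncertainty of the fold was not tested. On the vehicle array 6 spots of miR-204 passed the limit, 3 with the scaled MAD, 3 with the 95th percentile of the mismatched controls 0 with the highest mismatched control spot as the limit and 9 with the limit from empty spots. If all spots must pass, its 6 are too few. That highest spot, 3435 on the alcohol array, also left miR-204 with 0 spots there. Spots of miR-211 passed only under the limit from empty spots, with 9 on the vehicle array. No ratio of miR-211 is reported in any setting, since under the main limit it was not detected on either array. With 1.5-fold as the threshold 20 miRNAs were higher and 25 lower, and with 2-fold 11 and 5. At 1.3-fold, 31 were higher and 25 lower without background correction, 66 and 53 with the mismatched control baseline, and 61 and 52 in the authors' signal.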
